A study of Mus musculus with 18 samples.

Results

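The genes described here encode nuclear-encoded parts of respiratory complexes II, III, IV and V, the section of the mitochondrial respiratory chain that follows complex I, including ATP synthase. They were taken from the deposited expression table as every gene symbol starting with Sdha, Sdhb, Sdhc, Sdhd, Uqcr, Cyc1, Cox4, Cox5, Cox6, Cox7, Cox8 or Atp5, pseudogene symbols left out, with a mean of at least 1 FPKM (fragments per kilobase of transcript, scaled to the library's total) over the 18 libraries. Of 18264 genes in the table, 51 matched by symbol and 49 were kept. These were 4 subunits of complex II, 4 assembly factors of complex II, 9 subunits of complex III, 15 genes grouped with complex IV and 17 of complex V. Cox6b2, the testis isoform of a complex IV subunit, fell outside with a mean of 0.778 FPKM, Cox7b2 fell outside with 0.0381 FPKM, and the lowest gene inside was Cox4i2 with 1.42 FPKM.

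Complex II (succinate dehydrogenase) passes electrons from succinate to ubiquinone and is also an enzyme of the citrate cycle. Complex III (cytochrome bc1) hands them to cytochrome c, complex IV (cytochrome c oxidase) uses them to reduce oxygen, and complexes III and IV pump protons that complex V lets back through its rotor to make ATP. Several complex IV subunits exist as isoforms, with Cox6a2, Cox7a1 and Cox8b being the forms of heart and skeletal muscle and Cox4i2 a form known from lung and from low oxygen.

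The study asked how the transcription factor Foxm1, known for driving genes of cell division, acts in cardiac fibroblasts. All libraries were made from mouse neonatal ventricular cardiac fibroblasts (NVCFs), in 6 groups of 3 libraries. The groups were si-NC (a negative control for the siRNA), si-Foxm1 (Foxm1 knockdown by siRNA), Ang-II (angiotensin II, a peptide hormone used to stimulate fibroblasts), si-Foxm1+Ang-II (both), OE-NC (a control for overexpression) and OE-Foxm1 (Foxm1 overexpression). The labels give no dose, time, siRNA sequence or overexpression vector, do not say whether the Ang-II cells also received control siRNA, and do not say whether replicates came from separate isolations, so that p-values measure only the spread between these libraries. Although the label is fibroblast, the summed FPKM of 18 cardiomyocyte markers exceeded that of 10 fibroblast markers in every library. Sums over different genes and lists of unlike size do not give the share of a cell type.

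In each library 14988993 to 19343343 fragments were counted to genes, and the 49 genes took 1.17% to 1.57% of them. Ang-II replicate 3 stood apart from its group, with a mean chi-square per gene of 5.03 and 5.46 against the other Ang-II libraries, where all other replicate pairs lay between 1.69 and 2.88. Foxm1 itself was 10.4, 9.64 and 10.3 FPKM in si-NC, 6.06, 5.13 and 6.71 in si-Foxm1, 4.23, 4.03 and 5.65 in Ang-II, 3.55, 3.36 and 3.03 in si-Foxm1+Ang-II, 15.7, 17.1 and 17.1 in OE-NC and 399, 480 and 487 in OE-Foxm1. The siRNA and overexpression changes were in the direction of the labels. On the log2 scale Foxm1 changed by -0.68 with the siRNA and by -0.38 with the siRNA under angiotensin II. Angiotensin II, whose label gives no direction for Foxm1, lowered it by more (-0.99 against si-NC). Among markers, all 10 of cardiac fibroblasts and all 18 of cardiomyocytes were above 0. Summed fibroblast markers ranged from 4059 to 5571 FPKM over all libraries. Summed cardiomyocyte markers were 16016 to 17248 FPKM in si-NC, 9260 to 9812 in si-Foxm1, 12276 to 13383 in Ang-II, 7185 to 7430 in si-Foxm1+Ang-II, 9474 to 10031 in OE-NC and 10610 to 11133 in OE-Foxm1, so that this RNA moved with every treatment. Macrophage and leukocyte markers summed to 119 to 320 FPKM, endothelial markers to 158 to 218 and smooth muscle and pericyte markers to 96.4 to 165. In bulk RNA, fewer cells of a type and less RNA per cell cannot be told apart, and the part of any cell type in the changes below was not tested.

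The genes were abundant. Mean levels over the 18 libraries had a median of 215 FPKM, against 10.1 FPKM for all genes with a mean of at least 1, and 43 of the 49 had 100 FPKM or more. Atp5b, the catalytic beta subunit of ATP synthase, had the highest level with a mean of 1293 FPKM, followed by Cox6b1 with 721, Cox4i1 with 692 and Atp5a1 with 686 FPKM. The 5 genes below 20 FPKM were the 4 complex II assembly factors and Cox4i2.

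The first comparison asked what the Foxm1 siRNA did in unstimulated cells. Complex II rose, as did the core of complex III and its small subunit Uqcrb, and complex IV held calls in both directions. In ATP synthase Atp5g1 and Atp5d fell while 12 of 17 were called slightly higher, of which 3 still were under median-of-ratios scaling. Of the 49 genes, 29 were higher, 6 were lower and 14 did not pass (limma on log2(FPKM+1), adjusted p under 0.05 over 11180 genes). The background was high: 48.5% of all tested genes were called higher and 17.2% lower, against 59.2% and 12.2% of these genes. The groups did not overlap for 36 of the 49, against 71% of all tested genes. Their median log2 fold change was 0.12, and that of all tested genes was 0.11. Scaling mattered for this comparison. Under quantile normalization the medians were 0.15 and 0.02, with 33 of the 49 higher and 5 lower beside 3430 and 2975 of all genes, and with no filter on low values the members' median exceeded that of all genes by 0.0758. Under median-of-ratios scaling, which moves the all-gene median to 0.00085, 14 of the 49 were higher and 12 lower, and over all genes the split of 5418 higher and 1924 lower became 2954 and 3273.

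The same siRNA under angiotensin II, comparing si-Foxm1+Ang-II with Ang-II, gave 30 higher, 6 lower and 13 not called, beside 44% and 17.4% of all tested genes. The groups were apart for 38 of the 49, beside 64.5% of all genes, and the median was 0.14 against 0.09 for all genes. Without Ang-II replicate 3 the counts were 29 higher and 6 lower, beside 4835 and 1813 of all genes. Under median-of-ratios scaling 17 were higher and 8 lower, and the all-gene split of 4918 and 1942 became 3082 and 3116. The 2 siRNA comparisons use different libraries but share an estimate of the spread per gene. In both, 27 genes were called higher, which is 27 of 29 and 27 of 30. The same 6 genes, Atp5g1, Atp5d, Sdhaf4, Cox4i2, Cox6a1 and Cox5b, were called lower in both. How many of all tested genes were called in both is not given here, so this overlap has no background beside it. The call of Cox5b under angiotensin II (adjusted p = 0.0475) ended without Ang-II replicate 1 or 2 or si-Foxm1+Ang-II replicate 2 or 3 (adjusted p = 0.0786 to 0.187).

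**Figure D1:**
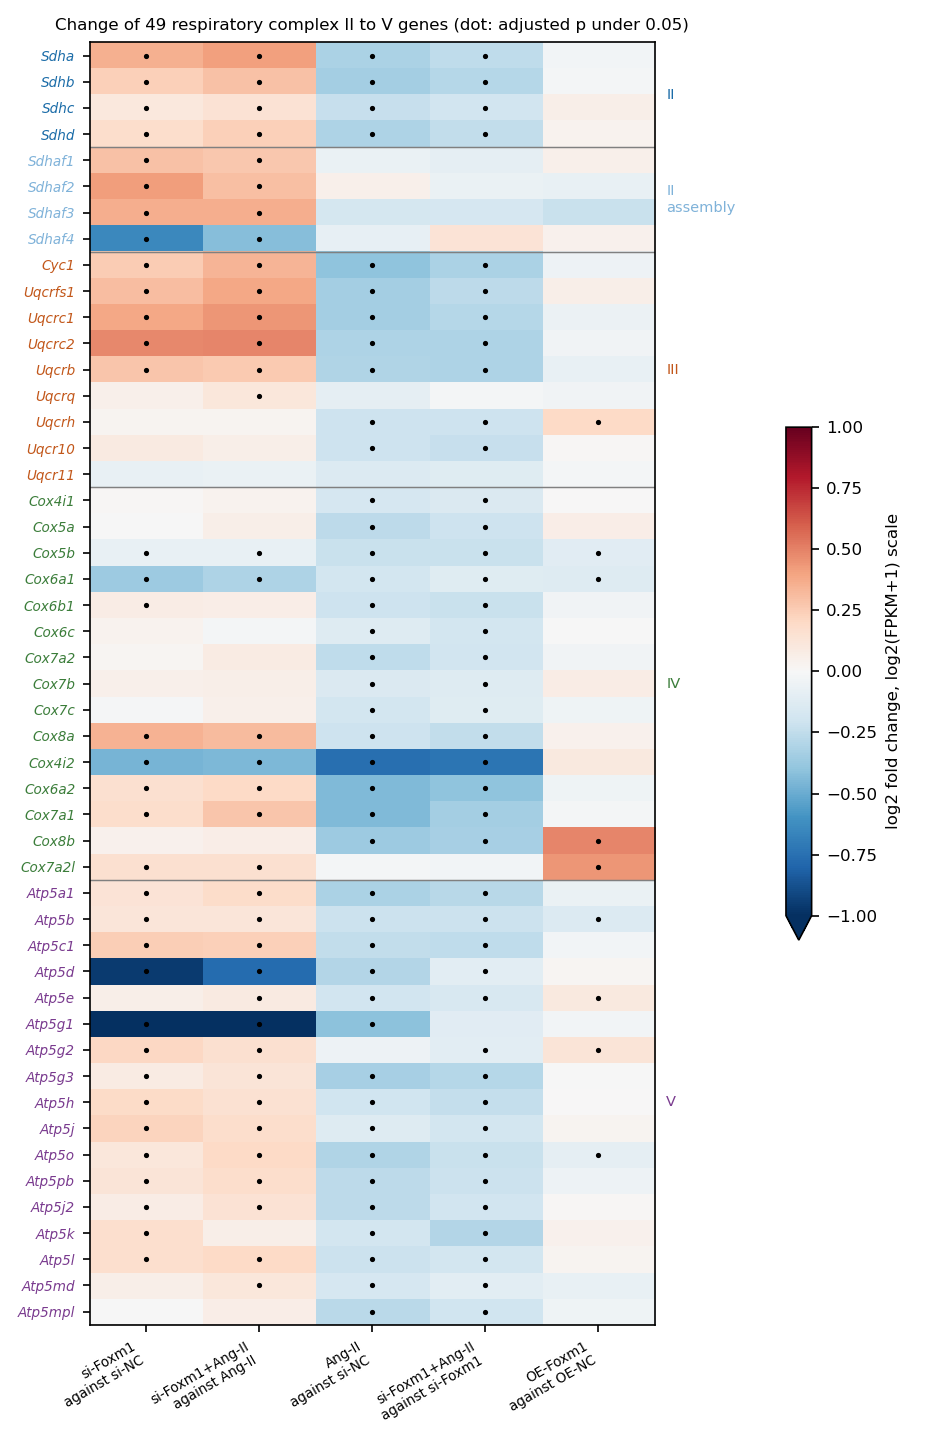
Log2 fold change on the log2(FPKM+1) scale for each of the 49 genes (rows, grouped by complex) in 5 comparisons (columns), red for higher and blue for lower, with a dot where the adjusted p was under 0.05. Colours stop at -1, which Atp5g1 passes in both siRNA columns (-1.39 and -1.09). The 2 angiotensin columns are blue for nearly all subunits, and the siRNA columns are red for complex II and the upper rows of complex III, where median-of-ratios scaling also called Sdha, Sdhb, Cyc1, Uqcrfs1, Uqcrc1, Uqcrc2 and Uqcrb higher, while the weak red of Atp5b and Cox6b1 in the first column turns negative under that scaling.

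Complex II rose with the siRNA. Sdha, the flavoprotein that oxidises succinate, was 200, 213 and 204 FPKM in si-NC and 265, 269 and 256 in si-Foxm1. Every si-Foxm1 library lay above every si-NC library, with a log2 fold change of 0.36 (SE 0.03, adjusted p = 3.67e-07). Under angiotensin II it went from 168, 167 and 160 FPKM in Ang-II to 219, 223 and 219 in si-Foxm1+Ang-II, a log2 fold change of 0.41. Sdhb, the iron-sulfur subunit, was 160, 164 and 157 FPKM in si-NC and 190, 191 and 187 in si-Foxm1. The groups were again apart, by 0.24 on the log2 scale. The membrane anchors Sdhc and Sdhd rose less, by 0.10 and 0.18. Under median-of-ratios scaling Sdha (0.23) and Sdhb (0.11) still passed in unstimulated cells, and the anchors did not. As a sum of deposited FPKM over the 4 genes, complex II went from 689 ± 15.3 (SD, n = 3) in si-NC to 810 ± 12.2 in si-Foxm1, a difference of 17.6%. The median log2 fold change of the 4 genes was 0.21, and 0.08 under median-of-ratios scaling.

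The complex II assembly factors, which insert cofactors or chaperone subunits, moved apart from each other. Sdhaf2, which helps attach the flavin cofactor to Sdha, was 13.6, 13.2 and 12.2 FPKM in si-NC and 17.6, 18.3 and 17.1 in si-Foxm1, with a log2 fold change of 0.42 (SE 0.05, adjusted p = 7.13e-06). Sdhaf1 and Sdhaf3, which serve the iron-sulfur subunit, rose by 0.29 and 0.36. Sdhaf4, which helps assemble flavinylated Sdha with Sdhb, went the other way, from 16.6, 19.1 and 17.4 FPKM to 10.3, 12.9 and 9.93. That fall was 0.64 on the log2 scale (SE 0.08, adjusted p = 1.57e-05), and under angiotensin II it was 0.42. All 4 calls held under median-of-ratios scaling in both comparisons. Sdhaf1, Sdhaf2 and Sdhaf4 each share exonic bases with a gene on the opposite strand in GENCODE M21. The longest overlaps were 1733 bases with E130208F15Rik for Sdhaf1, 94 with Cpsf7 for Sdhaf2 and 111 with Gm26524 for Sdhaf4. Whether the counting used strand is not given in the sources used here.

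In complex III the core genes and the small subunit Uqcrb (0.27) were called higher. Uqcrc2 and Uqcrc1 are the core proteins of the complex, Uqcrfs1 is the Rieske iron-sulfur protein and Cyc1 is cytochrome c1. Uqcrc2 was 184, 190 and 183 FPKM in si-NC and 263, 261 and 253 in si-Foxm1. This was the largest rise among the 49 genes, 0.48 on the log2 scale (SE 0.03, adjusted p = 1.99e-08), and larger than the change of 94.3% of all tested genes. Under angiotensin II the values were 150, 154 and 143 FPKM in Ang-II and 207, 211 and 210 in si-Foxm1+Ang-II, a log2 fold change of 0.49.

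Uqcrc1 was 194, 196 and 189 FPKM in si-NC and 255, 259 and 245 in si-Foxm1, with a log2 fold change of 0.39 (SE 0.03, adjusted p = 9.65e-08). Uqcrfs1 was 179, 186 and 177 FPKM in si-NC and 224, 229 and 219 in si-Foxm1, and rose by 0.31. Cyc1 was 177, 177 and 188 FPKM in si-NC and 224, 214 and 209 in si-Foxm1, and rose by 0.25. None of these groups overlapped, and all 3 genes, with Uqcrc2 and the small subunit Uqcrb, were called higher in both siRNA comparisons under median-of-ratios scaling too. The other small subunits moved less: Uqcrh, Uqcrq and Uqcr10 lay between 0.03 and 0.09 and Uqcr11 at -0.07, none called in unstimulated cells. Under median-of-ratios scaling Uqcr11 was called lower (-0.20). Quantile normalization called 7 of the 9 genes higher, Uqcrh among them (0.08, adjusted p = 0.0463 in limma). Uqcrq was called higher by the siRNA under angiotensin II. Summed over its 9 genes, complex III went from 1968 ± 51.3 deposited FPKM (SD, n = 3) to 2249 ± 72.2, a difference of 14.3%. The median log2 fold change of the 9 genes was 0.25, and 0.12 under median-of-ratios scaling.

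Because a ratio within a library does not depend on scaling, the share of each complex in the summed FPKM of the 49 genes was also compared, as a description. Complex II took 4.84%, 4.85% and 4.91% in si-NC and 5.36%, 5.36% and 5.43% in si-Foxm1. Complex III took 13.9% in each si-NC library and 15.1%, 15.0% and 14.8% in si-Foxm1. Complex IV took 35.0%, 35.2% and 34.9% in si-NC and 33.9% in each si-Foxm1 library. Under angiotensin II the mean shares moved the same way, from 4.65% to 5.26% for complex II, from 13.7% to 14.7% for complex III and from 35.7% to 34.3% for complex IV. Complex V took 45.9%, 45.7% and 45.9% in si-NC and 45.3%, 45.3% and 45.6% in si-Foxm1, lower without overlap, while under angiotensin II its mean went from 45.5% to 45.3% with overlapping groups. Within the set the shares of complexes II and III were thus higher with the siRNA and that of complex IV lower, without overlap in either setting.

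**Figure D2:**
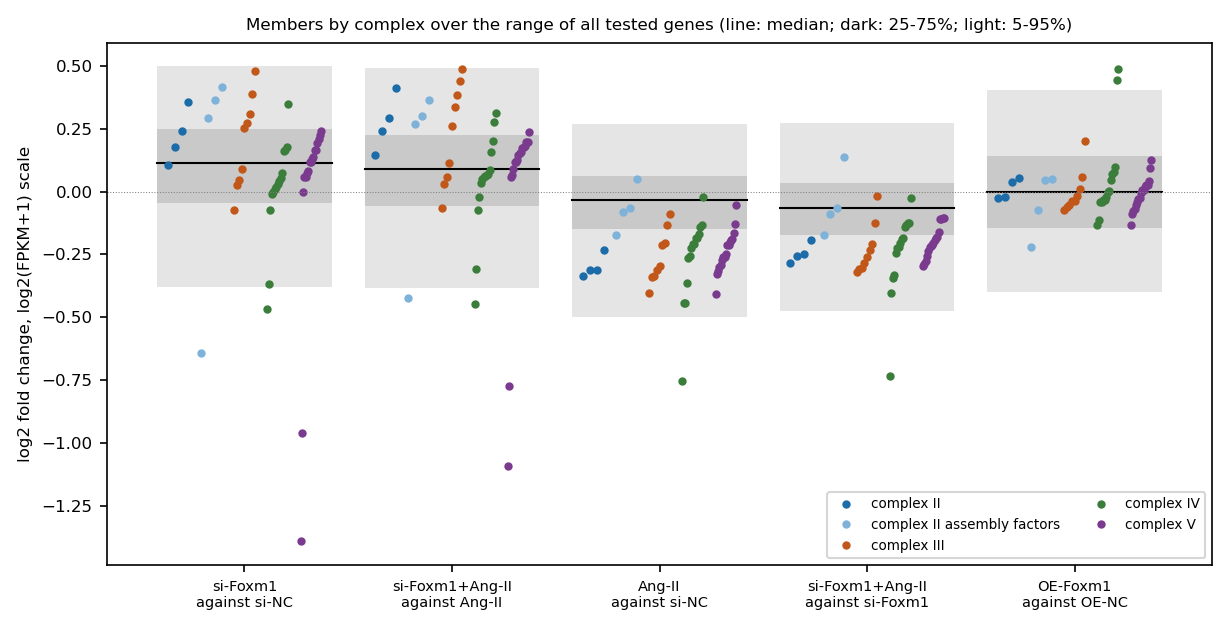
Log2 fold change (log2(FPKM+1) scale, y axis) of each of the 49 genes as a dot, by complex, in 5 comparisons (x axis), over bands that show the 5th to 95th and the 25th to 75th percentile of all tested genes and a line at their median. Complexes II and III reach above the 25 to 75% band with the siRNA, Atp5g1 and Atp5d lie far below the bands, and with angiotensin II most dots lie below the median line in both comparisons. Under median-of-ratios scaling the siRNA dots lie lower, with the all-gene medians of 0.11 and 0.09 moved to near 0.

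In complex IV the siRNA left 5 of 15 genes higher, 3 lower and 7 not called, but 1 higher and 7 lower under median-of-ratios scaling and 7 higher and 2 lower under quantile normalization. Cox8a, the ubiquitous form of the smallest subunit, was 402, 395 and 375 FPKM in si-NC and 499, 503 and 489 in si-Foxm1. This was the clearest rise in complex IV (0.35, SE 0.04, adjusted p = 5.08e-06), and the only one called under median-of-ratios scaling in unstimulated cells. Cox6a1, the ubiquitous form of a regulatory subunit, fell from 381, 388 and 379 FPKM to 299, 286 and 305, a change of -0.37 (SE 0.04, adjusted p = 5.67e-06), with no overlap between groups. Cox4i1, a regulatory subunit, and Cox5a, which faces the matrix, differed by 0.0088 and -0.0026 and were not called, but under median-of-ratios scaling both were called lower (-0.12 and -0.13). Cox6b1, which bridges the monomers of the dimer, was called higher by 0.075 (adjusted p = 0.0416), and leaving out si-NC replicate 1 or 3 or si-Foxm1 replicate 1 or 2 ended the call (adjusted p = 0.0688 to 0.153), as did median-of-ratios scaling, which gave -0.06. Cox5b, a zinc-binding subunit, was called lower by 0.07 (adjusted p = 0.0418), and leaving out any si-NC or si-Foxm1 library but si-NC replicate 3 ended that call (adjusted p = 0.0561 to 0.154), as did quantile normalization (-0.01).

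The muscle isoforms were measured beside their ubiquitous partners. Cox6a2 was 236, 234 and 228 FPKM in si-NC and 259, 265 and 258 in si-Foxm1, with a log2 fold change of 0.16 that did not pass under median-of-ratios scaling (0.03). Its share of Cox6a2 and Cox6a1 together, which needs no scaling, went from 38.2%, 37.7% and 37.5% in si-NC to 46.4%, 48.1% and 45.8% in si-Foxm1. Under angiotensin II the share went from 35.1%, 34.0% and 32.0% in Ang-II to 41.8%, 42.0% and 42.0% in si-Foxm1+Ang-II. The muscle isoform thus took a larger share in every siRNA library. Cox6a1 was called lower and Cox6a2 higher in both siRNA comparisons, and under median-of-ratios scaling Cox6a2 was called in neither.

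Cox7a1 took 40.2% ± 1.11 (SD, n = 3) of Cox7a1 and Cox7a2 in si-NC and 42.8% ± 1.09 in si-Foxm1. Cox8b took 33.7% ± 0.87 of Cox8b and Cox8a in si-NC and 29.2% ± 0.519 in si-Foxm1, the opposite direction, as Cox8a rose and Cox8b was 196, 208 and 193 FPKM in si-NC and 205, 213 and 197 in si-Foxm1. The shares of the muscle isoforms thus moved in different directions with the siRNA. Their levels differed by 0.16 for Cox6a2, 0.18 for Cox7a1 and 0.04 for Cox8b, which was not called. Like Cox6a2, Cox7a1 did not pass under median-of-ratios scaling (0.05). In the same comparison 16 of 18 cardiomyocyte markers were called lower and 1 higher (median -0.83). Macrophage and leukocyte markers were lower for all 8 tested in both siRNA comparisons (medians -0.74 and -0.80), and 5 of 9 endothelial markers were higher in both, with 1 and 2 lower. Smooth muscle and pericyte markers gave 5 of 7 lower in both, and fibroblast markers 2 higher and 4 lower of 10 in unstimulated cells and 2 and 3 under angiotensin II. Their part in the changes was not tested.

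**Figure D3:**
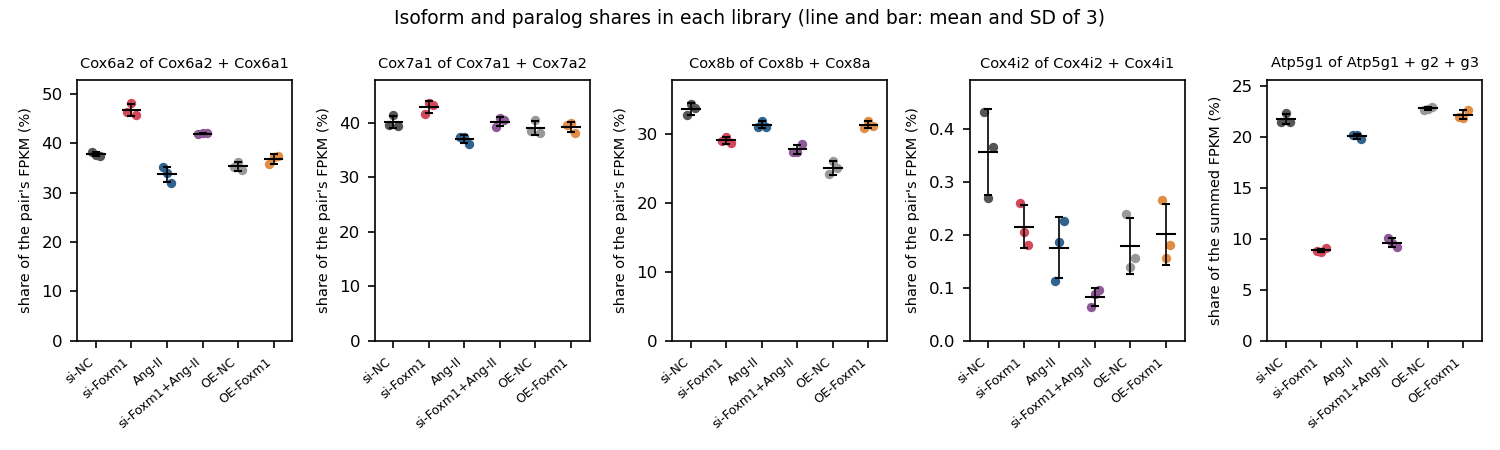
Share (percent, y axes from 0) of an isoform in the summed FPKM of its pair, and of Atp5g1 in the summed FPKM of the 3 c subunit genes, in each of the 18 libraries by group (points), with the mean and SD of 3. The Cox6a2 share is higher in both si-Foxm1 groups (46.8% and 41.9%) than in si-NC and Ang-II (37.8% and 33.7%), the Cox8b share is lower, and the Atp5g1 share falls from 21.8% to 8.88% and from 20.1% to 9.63%.

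Cox4i2, which is induced by low oxygen in other tissues, was barely expressed. It was 3.05, 2.03 and 2.62 FPKM in si-NC, 1.92, 1.55 and 1.25 in si-Foxm1, 0.728, 1.21 and 1.44 in Ang-II and 0.427, 0.593 and 0.61 in si-Foxm1+Ang-II, from 6 to 41 fragments per library. The level fell with either treatment and was lowest with both. It was called lower in all 4 of these comparisons, at -0.47 and -0.45 for the siRNA and -0.75 and -0.73 for angiotensin II. Its share of Cox4i2 and Cox4i1 never passed 0.432%.

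In complex V the largest siRNA changes were falls of Atp5g1 and Atp5d. Atp5g1 is one of 3 nuclear genes, with Atp5g2 and Atp5g3, that encode the same mature c subunit, the proton-carrying ring of the rotor, behind different mitochondrial import sequences. Atp5g1 was 216, 223 and 210 FPKM in si-NC and 82.9, 79.5 and 83.0 in si-Foxm1. The si-Foxm1 libraries lay far below, with a log2 fold change of -1.39 (SE 0.04, adjusted p = 3.60e-11), and this was the one gene of the 49 that changed by more than 2-fold. Only 0.152% of all tested genes were as low or lower. Under angiotensin II the values were 163, 167 and 158 FPKM in Ang-II and 80.0, 77.7 and 69.8 in si-Foxm1+Ang-II, a log2 fold change of -1.09 (SE 0.04, adjusted p = 3.13e-10).

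Its paralogs were not called lower. Atp5g2 was 178, 183 and 177 FPKM in si-NC and 201, 214 and 208 in si-Foxm1 (0.21), and Atp5g3 was 610, 587 and 592 FPKM in si-NC and 653, 618 and 625 in si-Foxm1 (0.08). Both were called higher; under median-of-ratios scaling Atp5g2 still was (0.08), while Atp5g3 turned to -0.05 and was not called. Atp5g1 made up 21.5%, 22.4% and 21.5% of the summed c subunit FPKM in si-NC and 8.84%, 8.73% and 9.06% in si-Foxm1, and 20.2%, 20.2% and 19.8% in Ang-II against 10.1%, 9.64% and 9.17% in si-Foxm1+Ang-II. The summed c subunit level moved less, from 992 ± 13.0 FPKM (SD, n = 3) to 921 ± 13.8 without angiotensin II and from 810 ± 15.8 to 787 ± 23.3 with it. These paralogs have processed copies in the genome, and how fragments shared with such copies were counted is not given in the sources used here.

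Atp5d, the delta subunit of the F1 stalk, was 148, 155 and 145 FPKM in si-NC and 76.8, 74.6 and 77.8 in si-Foxm1, with a log2 fold change of -0.96 (SE 0.04, adjusted p = 2.65e-10). Under angiotensin II it was 126, 124 and 117 FPKM in Ang-II and 73.5, 71.4 and 68.1 in si-Foxm1+Ang-II (-0.77). The F1 subunits beside it were not called lower: Atp5b was 1335, 1380 and 1300 FPKM in si-NC and 1475, 1469 and 1412 in si-Foxm1 (0.12), and Atp5a1, the alpha subunit, was 697, 722 and 710 and then 796, 792 and 758 (0.14). Neither passed under median-of-ratios scaling in unstimulated cells, where Atp5b was at -0.01 and Atp5a1 at 0.01. Under that scaling Atp5c1 (0.11), Atp5g2 (0.08) and Atp5j (0.10) were called higher in complex V and Atp5mpl (-0.13) joined Atp5d and Atp5g1 on the lower side. Atp5d shares 68 exonic bases with Cbarp, on the opposite strand at 2.20 FPKM.

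**Figure D4:**
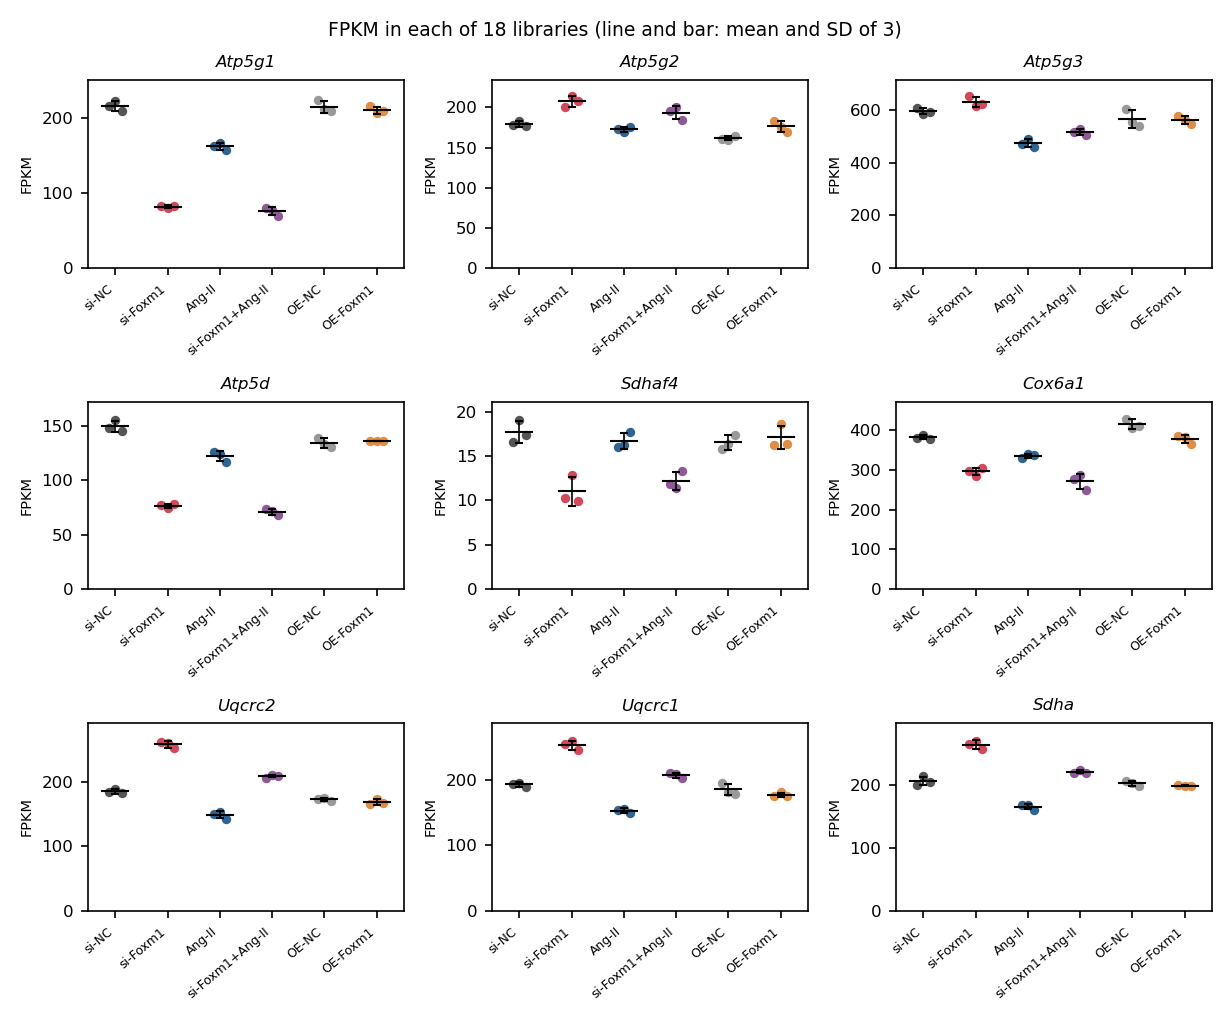
FPKM (y axes from 0) of 9 of the genes in each of the 18 libraries by group (points), with the mean and SD of 3. Atp5g1, Atp5d, Sdhaf4 and Cox6a1 are lower in both si-Foxm1 groups than in si-NC and Ang-II, and Uqcrc2, Uqcrc1 and Sdha are higher, also under median-of-ratios and quantile scaling; between OE-NC and OE-Foxm1 only Atp5g2 and Cox6a1 of the 9 were called (0.13 and -0.13).

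The transcript ends of the genes that fell were searched for 4 words of 7 bases, TCCATTA and CCATTAA, which overlap each other by 6 bases, and AATAGGA and ATAGGAA, which do the same. The words come from an earlier look at these libraries, where genes with them in the 3′UTR were lower with si-Foxm1, so the matches give no independent support. The 3 genes with the largest falls, Atp5g1, Atp5d and Sdhaf4, were the 3 of 46 genes with an annotated 3′UTR (6.52%) that hold TCCATTA or CCATTAA on the transcript strand, beside 14.8% of 10861 tested genes. AATAGGA or ATAGGAA was in Atp5g1, Sdhaf2 and Sdhaf3 (6.52%, beside 16.5% of tested genes), and Sdhaf2 and Sdhaf3 rose. Any of the words was in 3 of the 6 genes called lower, 2 of the 28 called higher and 0 of the 12 not called, beside 27.0% of all tested genes with a 3′UTR. The longest annotated 3′UTR of Atp5g1 was 4252 bases, and those of Atp5g2 and Atp5g3, with no match, were 311 and 146 bases. All sites of the falling Atp5d, Atp5g1 and Sdhaf4 are shown, and only the first site of the rising Sdhaf2 and of the rising Sdhaf3. Sdhaf2 also holds sites at chr19:10515420-10515426 and chr19:10515214-10515220, and Sdhaf3 holds another at chr6:7041642-7041648. Sequences run 5′ to 3′ on the transcript strand with the words in capitals, from GENCODE M21 on GRCm38. Coordinates are those of the first word:
Atp5d 3′UTR, chr10:80145792-80145798, plus strand: cctgtcTCCATTAAacacca
Atp5g1 3′UTR, chr11:96073020-96073026, minus strand: gctttaCCATTAAacaacaa
Atp5g1 3′UTR, chr11:96070133-96070139, minus strand: aagggcATAGGAAccacagt
Sdhaf4 3′UTR, chr1:23996081-23996087, minus strand: aacgctTCCATTAgcatctt
Sdhaf2 3′UTR, chr19:10515681-10515687, minus strand: tttttgAATAGGAgcctata
Sdhaf3 3′UTR, chr6:7041472-7041478, plus strand: cagagaAATAGGAAgggatt

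Angiotensin II lowered these genes nearly throughout. In Ang-II against si-NC, 41 of the 49 were lower, 0 were higher and 8 did not pass, beside 15.2% of all tested genes called higher and 29.2% called lower. That is 83.7% of the set on the lower side. The groups did not overlap for 44 of the 49, beside 52.9% of all genes. The median log2 fold change was -0.23, and that of all tested genes was -0.03. Under median-of-ratios scaling 39 of the 41 calls held and 0 genes were higher, with a median of -0.17, while the all-gene split of 1702 higher and 3268 lower became 2481 and 2424. In limma 43 of the 49 had an unadjusted p under 0.05, for which no all-gene share is given here. Voom on recovered counts also called 0 higher and 43 lower, beside 1708 higher and 3310 lower of 11180 genes. Without Ang-II replicate 3, which stood apart, the counts were 0 higher and 41 lower, beside 1630 and 3323 of all genes.

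In cells with the siRNA, si-Foxm1+Ang-II against si-Foxm1 gave 41 lower, 0 higher and 8 not called, beside 12.9% of all genes higher and 34.6% lower, and the groups were apart for 41, beside 57% of all genes. The median was -0.21 against -0.07 for all genes. In limma 43 had an unadjusted p under 0.05, again without an all-gene share. Voom called 0 higher and 42 lower, beside 1476 higher and 4010 lower of 11180 genes. Median-of-ratios scaling left 32 lower and 1 higher (Sdhaf4, 0.21), and its all-gene split was 2466 higher and 2267 lower, in place of 1441 and 3873. The 2 angiotensin comparisons use different libraries but share an estimate of the spread per gene. All-gene counts of calls shared by both are not given here. Among the members, 40 genes were called lower in both, of 41 in each. Cardiomyocyte markers moved with them: 17 of 18 were lower and 1 higher in Ang-II against si-NC (median -0.44), and 15 of 18 lower in the siRNA cells (median -0.41), with no marker at 0. Endothelial markers fell as well, 7 of 9 tested lower in each comparison (medians -0.36 and -0.38), while macrophage and leukocyte markers gave 5 higher and 1 lower of 8 in Ang-II against si-NC (median 0.31) and 2 and 2 in the siRNA cells. Smooth muscle and pericyte markers gave 3 higher and 3 lower of 7 in both. Fibroblast markers gave 6 of 10 lower and 2 higher in the first comparison and 7 lower and 2 higher in the second. Their part in the fall was not tested.

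By complex, the falls were of like size. All 4 complex II subunits fell in Ang-II against si-NC, between -0.34 and -0.23, as did 7 of 9 complex III genes, 14 of 15 complex IV genes and 16 of 17 complex V genes. Summed FPKM fell by 18.9% for complex II, 16.2% for complex III, 13.4% for complex IV and 15.8% for complex V, and by 15.8%, 15.5%, 12.7% and 14.0% in the siRNA cells. None of the complex II assembly factors was called in either comparison, with values from -0.17 to 0.14.

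Among the core subunits, Cyc1 fell from 177, 177 and 188 FPKM in si-NC to 137, 142 and 131 in Ang-II, a log2 fold change of -0.40 (SE 0.05, adjusted p = 7.69e-06). Uqcrfs1 was 141, 147 and 140 FPKM and Uqcrc1 154, 156 and 149 FPKM in Ang-II, both -0.34. Sdhb was 126, 130 and 124 FPKM in Ang-II (-0.34). All of these Ang-II libraries lay below all si-NC libraries. In complex V, Atp5b was 1163, 1190 and 1108 FPKM (-0.21) and Atp5a1 was 576, 577 and 556 FPKM (-0.32) in Ang-II. Cox5a was 83.8, 85.3 and 82.8 FPKM in si-NC and 71.4, 68.7 and 69.0 in Ang-II (-0.27).

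The largest falls were in the isoforms of restricted expression. After Cox4i2, given above, Cox7a1 went from 150, 161 and 144 FPKM in si-NC to 105, 119 and 110 in Ang-II, a log2 fold change of -0.44 (SE 0.05, adjusted p = 4.06e-06). Cox6a2 went from 236, 234 and 228 FPKM to 179, 175 and 159, also -0.44 (SE 0.05, adjusted p = 6.18e-06). In si-Foxm1+Ang-II against si-Foxm1 the changes were -0.34 for Cox7a1, at 137, 138 and 130 FPKM with both treatments, and -0.41 for Cox6a2, at 200, 209 and 182 FPKM. Cox8b fell by 0.36, to 153, 162 and 148 FPKM in Ang-II. The ubiquitous partners fell less: Cox7a2 by 0.26, Cox8a by 0.21, Cox6a1 by 0.18 and Cox4i1 by 0.17. The muscle share of each pair was accordingly lower in Ang-II, at 33.7% ± 1.58 for Cox6a2, 37.1% ± 0.707 for Cox7a1 and 31.4% ± 0.505 for Cox8b (SD, n = 3), beside 37.8%, 40.2% and 33.7% in si-NC.

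The genes not called in either angiotensin comparison, beside the assembly factors, were Uqcr11, Uqcrq and Cox7a2l. Uqcr11 just missed the threshold, at -0.13 in Ang-II against si-NC (95% interval -0.25 to -0.02, adjusted p = 0.0531 in limma, groups apart) and -0.12 in the siRNA cells (adjusted p = 0.0644). Uqcrq was at -0.09 (95% interval -0.16 to -0.01, adjusted p = 0.0559) and -0.02. Cox7a2l, a Cox7a relative that binds complexes III and IV into supercomplexes, was 164, 168 and 157 FPKM in si-NC and 158, 160 and 163 in Ang-II, with a change of -0.02 (95% interval -0.10 to 0.06), and of 0.03, also not called, under median-of-ratios scaling. In the siRNA cells it was 181, 190 and 176 FPKM without angiotensin II and 186, 179 and 172 with it (-0.03). Cox7a2l rose with the siRNA by 0.16 in both comparisons, which did not pass under median-of-ratios scaling (0.03 and 0.06).

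With siRNA and angiotensin II together, the summed level of the 49 genes lay between that of the single treatments. The sum was 14168 ± 382 FPKM (SD, n = 3) in si-NC, 15047 ± 343 in si-Foxm1, 12022 ± 252 in Ang-II and 12963 ± 248 in si-Foxm1+Ang-II. Whether the siRNA effect itself differed with angiotensin II was tested by the interaction, the siRNA change under angiotensin II minus that without it. Of the 49, 1 gene was called higher and 0 lower, beside 0.403% and 0.519% of 11180 genes. An unadjusted p under 0.05 was found for 2, with no all-gene share given here. Voom on recovered counts gave the same 1 and 0, beside 112 and 117 of all genes. The called gene was Atp5g1, with an interaction of 0.30 (SE 0.06, 95% interval 0.16 to 0.43, adjusted p = 0.0419): the fall was 1.39 without and 1.09 with angiotensin II, which itself lowered Atp5g1 by 0.41 in cells without the siRNA. The call ended without si-NC replicate 1, 2 or 3, si-Foxm1 replicate 1 or 2, Ang-II replicate 1 or si-Foxm1+Ang-II replicate 1 or 2 (adjusted p = 0.0614 to 0.113). It also ended with no filter on low values (adjusted p = 0.0998). For the other 48 genes a difference in the siRNA effect was not detected, with values from -0.11 to 0.22. The median interaction of the 49 was 0.03 and that of all tested genes -0.02, with 40 of the 49 above the latter. This shift of the set was not tested.

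Overexpression of Foxm1, compared with its own control, gave few calls among these genes. In OE-Foxm1 against OE-NC 5 were higher, 4 lower and 40 not called (6 higher and 13 lower under quantile normalization), beside 27.1% and 28% of 11259 tested genes, and the groups were apart for 12 of the 49, beside 62.2% of all genes. The median was -0.02, against -0.0012 for all genes. The OE-NC libraries had 14988993 to 16384195 fragments and the OE-Foxm1 libraries 17450690 to 18088104, so that depth and group cannot be told apart in this arm.

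Cox8b and Cox7a2l stood out. Cox8b was 131, 134 and 128 FPKM in OE-NC and 178, 189 and 186 in OE-Foxm1, a log2 fold change of 0.49 (SE 0.03, adjusted p = 1.10e-06). Cox7a2l was 129, 129 and 123 FPKM in OE-NC and 174, 175 and 171 in OE-Foxm1, a log2 fold change of 0.44 (SE 0.03, adjusted p = 1.29e-06). For both genes OE-NC lay below si-NC, which had 193 to 208 FPKM for Cox8b and 157 to 168 for Cox7a2l; these values from another arm are set side by side without a test. Uqcrh, the hinge subunit of complex III, was 330, 288 and 307 FPKM in OE-NC and 358, 357 and 346 in OE-Foxm1 (0.20, SE 0.04, adjusted p = 0.00299). Atp5g2 and Atp5e were the other genes called higher, by 0.13 and 0.09. Cardiomyocyte markers were higher too, 11 of 18 called higher and 2 lower (median 0.14), as were fibroblast markers, 8 of 10 higher (median 0.26), and macrophage and leukocyte markers, 5 of 8 higher and 2 lower (median 0.45). Endothelial markers gave 2 of 9 higher, and smooth muscle and pericyte markers 1 higher and 3 lower of 7. The part of these cells in the rise of Cox8b was not tested.

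The 4 lower genes changed little. Atp5b was 1371, 1326 and 1327 FPKM in OE-NC and 1225, 1231 and 1213 in OE-Foxm1, a log2 fold change of -0.13 (SE 0.03, adjusted p = 0.00252). Cox6a1 was 429, 405 and 412 FPKM and then 385, 384 and 366 (-0.13), and Cox5b was 411, 401 and 391 and then 371, 379 and 362 (-0.11). Atp5o, of the peripheral stalk, was lower by 0.09. The genes that fell most with the siRNA did not change detectably in the other direction: Atp5g1 was 225, 212 and 210 FPKM in OE-NC and 216, 207 and 210 in OE-Foxm1 (-0.03, 95% interval -0.10 to 0.04), Atp5d was 139, 133 and 130 and then 136 in each library (0.02), and Sdhaf4 was 15.8, 16.4 and 17.4 and then 16.3, 18.6 and 16.4 (0.05). Uqcrc2 (-0.04), Uqcrc1 (-0.06) and Sdha (-0.03) were not called either.

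Promoters were compared for the words read by factors known for respiratory chain genes, NRF1 (GCGCATGCGC, its own reverse complement) and GABP of the ETS family (CCGGAAG, either strand; the words do not overlap). RefSeq promoters on GRCm38.p6, from 250 bases before to 50 after the start, matched 38 of the 49 genes. CCGGAAG was in 16 of the 38 (42.1%), beside 9.93% of 27025 genes with a promoter in the table (8.86% of 32851 promoters), and the NRF1 word in 4 (10.5%), beside 1.07% of genes (0.971% of promoters). Of the 16, 11 genes were higher with the siRNA, 1 lower and 4 not called, where the 38 held 23, 5 and 10. The 4 with the NRF1 word were Uqcrc1, Atp5g2 and Atp5k, which rose, and Cox6a1, which fell; Atp5k was not called under median-of-ratios scaling (0.03) or in angiotensin II (0.06). A match describes letters and not binding. The shares over all genes count every gene with a promoter, expressed here or not, while the 38 were all expressed. What part expression had in the difference was not tested. Shown 5′ to 3′ with the words in capitals are a rising and a falling gene with the NRF1 word, and Atp5k, which like Cox6a1 has both words; Uqcrc1, Cox6a1 and Atp5k were all called lower by angiotensin II in cells without the siRNA:
Uqcrc1 promoter, chr9:108936398-108936697, plus strand: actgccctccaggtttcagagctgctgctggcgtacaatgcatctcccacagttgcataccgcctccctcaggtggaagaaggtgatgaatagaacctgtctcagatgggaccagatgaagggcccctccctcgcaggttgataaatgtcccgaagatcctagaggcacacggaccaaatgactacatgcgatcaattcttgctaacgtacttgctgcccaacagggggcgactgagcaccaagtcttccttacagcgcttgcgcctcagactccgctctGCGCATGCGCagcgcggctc
Cox6a1 promoter, chr5:115348909-115349208, minus strand: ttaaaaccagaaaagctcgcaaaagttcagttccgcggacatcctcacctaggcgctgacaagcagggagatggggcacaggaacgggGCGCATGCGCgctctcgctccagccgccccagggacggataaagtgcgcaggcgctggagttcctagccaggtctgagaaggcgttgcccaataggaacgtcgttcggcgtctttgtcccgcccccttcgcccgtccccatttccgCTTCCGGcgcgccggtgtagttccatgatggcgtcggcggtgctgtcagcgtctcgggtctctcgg
Atp5k promoter, chr5:108434350-108434649, minus strand: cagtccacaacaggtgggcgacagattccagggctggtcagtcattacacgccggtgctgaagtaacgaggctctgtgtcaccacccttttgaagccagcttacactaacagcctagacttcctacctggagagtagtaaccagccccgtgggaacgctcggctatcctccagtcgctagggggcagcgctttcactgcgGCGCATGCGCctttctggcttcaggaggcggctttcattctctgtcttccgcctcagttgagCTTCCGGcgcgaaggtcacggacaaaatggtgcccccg

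The rest of the pathway was counted from lists, to be read beside the shares of all tested genes given above (48.5% higher and 17.2% lower with si-Foxm1, all-gene median 0.11). With si-Foxm1 against si-NC, 25 of 36 complex I subunits were higher and 2 lower, with a median of 0.16, and the largest change was the fall of Ndufa8 (-1.53, SE 0.04), an accessory subunit. Of 30 tested assembly factors of complexes III to V, 21 were higher and 3 lower. Among them Atpaf1, a chaperone of the F1 part of ATP synthase, rose by 1.10 (SE 0.07), Coa5, a complex IV assembly factor, rose by 0.998, and Uqcc1, a complex III assembly factor, fell by 0.77. Of 13 citrate cycle enzymes 10 were higher and 1 lower, led by Suclg2 (0.75), and of 11 tested regulators of mitochondrial biogenesis 7 were higher and 2 lower, with the coactivator Ppargc1a at 0.49 and its relative Ppargc1b at -0.81. Under median-of-ratios scaling the counts in unstimulated cells were 11 higher and 8 lower for complex I, 15 and 4 for assembly factors, 7 and 3 for the citrate cycle and 5 and 2 for biogenesis regulators. Under angiotensin II the siRNA counts were 25 higher and 2 lower for complex I, 20 and 2 for assembly factors, 11 and 1 for the citrate cycle and 9 and 2 for biogenesis regulators, beside 44% and 17.4% of all genes, and under median-of-ratios scaling 16 and 7, 14 and 2, 9 and 2, and 7 and 2.

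With angiotensin II, beside 29.2% of all genes lower, all 13 citrate cycle enzymes and 32 of 36 complex I subunits were lower, and under median-of-ratios scaling 13 and 28. Assembly factors gave 14 lower and 1 higher of 30, and biogenesis regulators 4 lower of 11, a share near that of all genes, among them Ppargc1b (-0.46), the nuclear receptor Esrra (-0.35) and Ppargc1a (-0.34). In the siRNA cells the counts lower were 13 of 13, 35 of 36, 15 of 30 and 4 of 11, with 1 biogenesis regulator higher, beside 34.6% of all genes; under median-of-ratios scaling they were 11, 22, 9 (with 2 higher) and 4. With overexpression 11 of 12 biogenesis regulators were lower, with a median of -0.25, led by Ppargc1a (-0.37), Ppargc1b (-0.31) and the mitochondrial RNA polymerase Polrmt (-0.30). Complex I gave 8 higher and 3 lower of 36, assembly factors 10 and 7 of 29 and the citrate cycle 3 lower of 13, beside 27.1% of all genes higher and 28% lower, so that the assembly factors lay near the background. For the interaction no gene of these 4 lists was called, but 1 complex I subunit was called higher under median-of-ratios scaling and under quantile normalization. None of the 13 listed respiratory genes encoded in mitochondrial DNA was among the genes with FPKM values used here, so they could not be analysed.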

How the data were processed

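Total RNA from the cells was made into stranded mRNA libraries, per the labels' protocols. The deposited values are FPKM, which the authors made with fastp, HISAT2 and HTSeq on mm39, per the submitters' processing notes; their versions, the annotation and the strand setting: not given in the sources used here. Low values were whole multiples of 1 fragment (17960 of 17960 genes above 0, within 0.02), which gave the fragment totals. FPKM share a total, so a change in abundant genes moves all others.

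Tests were two-sided with limma 3.58.1 in R 4.3.3 (moderated, with a trend) on log2(FPKM+1), which understates changes of low genes, over genes with a mean of at least 1 FPKM, with Benjamini-Hochberg adjustment over all of them; called means an adjusted p under 0.05. One fit held the 12 knockdown-arm libraries and another the 6 overexpression libraries, with no replicate block. An exact permutation test of 3 against 3 cannot go below 0.1. Intervals cover the spread between libraries only. Tables used Python 3.11.15 and pandas 2.3.3. The fit was tested on simulated data.

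The members and lists were chosen with earlier results of these data known. Genes given per library were the complex IV isoforms, the core subunits, and in each comparison the 3 highest and 3 lowest called genes whose groups do not overlap; Atp5g2, Atp5g3, Sdhaf1, Sdhaf3, Cox4i1, the genes listed under other scalings and the c subunit and complex shares were chosen after their values were seen. Lists were complex I subunits, assembly factors of complexes III to V, biogenesis regulators, citrate cycle enzymes, 5 cell type marker lists and mitochondrially encoded genes (not analysed here). Alternatives were another pseudocount, other filters, quantile and median-of-ratios scaling, other sets of groups, the replicate block, voom on recovered counts and leaving out each library. Promoters came from RefSeq (GRCm38.p6) and 3′UTRs of at least 50 bases from GENCODE M21 (GRCm38); deposited values carry no coordinates, so builds were not mixed.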

Additional observations from a re-analysis of the deposited data

Results flagged for a closer look

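The siRNA effect on Atp5g1 differed between cells with and without angiotensin II by the interaction test in limma: 0.298 on the log2(FPKM+1) scale (adjusted p = 0.0419), with the 3 si-Foxm1 libraries below the 3 control libraries in both settings. The call ended on leaving out any of 8 of the 12 libraries, as given above.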

How the results depend on the processing

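Scaling changed the siRNA counts most. Under median-of-ratios scaling si-Foxm1 against si-NC gave 14 members higher and 12 lower, keeping 14 of the 29 and 6 of the 6, with Atp5b at -0.0129 (adjusted p = 0.761), Cox4i1 at -0.122 (0.00784) and Cox6b1 at -0.0554 (0.162) turned negative; under angiotensin II the siRNA gave 17 higher, and angiotensin II in siRNA cells gave 1 higher. Quantile normalization gave 13 lower with overexpression. With no filter on low values the interaction had 0 higher. The members' median minus that of all genes was 0.003 for the siRNA in unstimulated cells (0.133 with quantile normalization, 0.0758 with no filter), -0.191 for angiotensin II without the siRNA (quantile -0.246), 0.0549 for the siRNA under angiotensin II (quantile 0.138, no filter 0.118) and -0.143 for angiotensin II in siRNA cells (quantile -0.216, no filter -0.181). For the interaction it was 0.0495 (quantile 0.0238) and for overexpression -0.0148 (quantile -0.0413).

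Leaving out 1 library at a time gave 26 to 30 higher and 5 to 6 lower for si-Foxm1 against si-NC (median difference -0.0165 to 0.0278), 0 and 40 to 43 for Ang-II against si-NC (-0.207 to -0.171), 28 to 32 and 5 to 6 for the siRNA under angiotensin II (0.0322 to 0.0672), 0 to 1 and 37 to 42 for angiotensin II in siRNA cells (-0.161 to -0.126), 0 to 1 and 0 for the interaction (0.0317 to 0.0733) and 4 to 7 and 3 to 5 for overexpression (-0.0334 to 0.0192). Over all genes the interaction gave 45 higher and 58 lower, but 19 and 38 with no filter and 112 and 117 with voom. The cause of these shifts was not tested. Of the settings tried for named genes, 2272 values were counted as the same, 54 lost the call and 20 gained it. Another 3 turned direction with a call before or after. A change of sign between uncalled values, as for Cox7a2l in Ang-II against si-NC under median-of-ratios scaling, was counted as the same.

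With the replicate block the counts were 30 higher and 6 lower, 0 and 43, 33 and 6, 0 and 43, 1 and 0, and 5 and 6 in the order above. Over all genes they were 5463 and 1948, 1703 and 3305, 4958 and 1987, 1462 and 3935, 62 and 75, and 3066 and 3144. Same-numbered libraries correlated at -0.0404 to 0.18 over 21 pairs, 14 of them best with their own number and 3 below 0. Since not every pair passed 0.1 and the labels name no shared batch, the libraries were taken as unpaired, though these values hint at some pairing by number. A fit of only the groups compared is the same as given for overexpression and was not run for the interaction. Counts of 6 to 41 fragments limit Cox4i2.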
